A study of Mus musculus with 8 samples.

Results

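The megalin-cubilin endocytosis machinery of the kidney proximal tubule was followed here through 7 genes, Lrp2, Cubn, Amn, Dab2, Clcn5, Lrpap1 and Ocrl. They were taken by symbol from the 17457 genes listed in kidney cortex mRNA of C57BL/6J mice. No measured value entered this rule, but earlier results of these data were known when the set was chosen. The mice were wild type, received a normal Pi (0.6%) or a high Pi (1.2%) diet for 3 days, and gave 4 libraries per diet. All were males, matched for age, between 8 and 16 weeks old. Whole cortex was sequenced, so a value mixes all cell types of the tissue, and fewer cells of a type and less RNA per cell cannot be told apart. Values are FPKM, fragments per kilobase of transcript scaled to the total of the library. The comparison asked whether a short dietary Pi load goes with a different mRNA level of the receptors, their helpers and the endosomal proteins that recycle them.

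Proximal tubule cells recover filtered proteins, vitamins and hormones from the urine by receptor-mediated endocytosis at the brush border. Megalin (Lrp2) is a giant transmembrane receptor of the LDL receptor family, and cubilin (Cubn) is a large peripheral receptor that reaches the apical membrane only with its transmembrane partner amnionless (Amn). The chaperone RAP (Lrpap1) keeps megalin free of ligand in the endoplasmic reticulum. Disabled-2 (Dab2) binds the cytoplasmic tails and links the receptors to clathrin. ClC-5 (Clcn5) is a chloride/proton exchanger needed for acidification of early endosomes, and OCRL (Ocrl) is an inositol polyphosphate 5-phosphatase of clathrin-coated vesicles and endosomes. Mutations of CLCN5 and OCRL in humans cause Dent disease and, for OCRL, Lowe syndrome, with loss of low-molecular-weight proteins in the urine. The sodium-phosphate cotransporter of the same brush border, Npt2a (Slc34a1), is itself retrieved by endocytosis when Pi is abundant.

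The stretches just upstream of the receptor genes are shown because their products act as one complex while their start regions differ in base composition. The 250 bases before the gene start were taken from RefSeq on GRCm38.p6 and are written 5′ to 3′ on the strand of the gene, with matches to the searched motifs in capitals. Lrp2 lies on the minus strand (chr2:69586030-69586279), Cubn on the minus strand (chr2:13491877-13492126) and Amn on the plus strand (chr12:111270846-111271095).
Lrp2: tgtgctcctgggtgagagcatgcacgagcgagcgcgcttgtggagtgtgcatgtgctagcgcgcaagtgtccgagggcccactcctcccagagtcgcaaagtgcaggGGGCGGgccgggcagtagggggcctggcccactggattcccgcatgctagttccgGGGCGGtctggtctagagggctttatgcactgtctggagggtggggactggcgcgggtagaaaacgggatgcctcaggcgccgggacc
Cubn: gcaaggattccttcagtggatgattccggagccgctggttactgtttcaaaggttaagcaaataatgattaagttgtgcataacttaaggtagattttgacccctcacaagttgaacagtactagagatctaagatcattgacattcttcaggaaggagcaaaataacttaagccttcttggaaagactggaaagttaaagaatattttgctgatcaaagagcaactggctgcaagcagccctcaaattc
Amn: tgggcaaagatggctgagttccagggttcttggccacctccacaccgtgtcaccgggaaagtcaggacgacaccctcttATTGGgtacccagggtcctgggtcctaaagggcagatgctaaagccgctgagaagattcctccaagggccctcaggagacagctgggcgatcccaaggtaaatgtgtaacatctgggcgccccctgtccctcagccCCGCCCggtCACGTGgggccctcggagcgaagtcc
GC content was 66.4% for Lrp2, 39.6% for Cubn and 61.2% for Amn, beside a median of 52.4% over 32851 upstream windows of the same length. The Lrp2 stretch held 2 GC boxes (GGGCGG), a motif found in 32.7% of all windows. The Amn stretch held 1 GC box, 1 CCAAT box (CCAAT, in 33.8% of windows) and 1 E-box (CACGTG, in 6.02%). The Cubn stretch held none of these and no TATA box (TATAAA, in 12.4%), short HNF1 motif (GTTAAT, in 6.43%), full palindromic HNF1 motif (in 0.00913%), HNF4A motif (CAAAGTCCA, in 0.384%), PPAR element (in 0.0335%) or CLEAR box (TCACGTGA, in 0.785%), and the other stretches held no further match. Motifs were searched on both strands, the CLEAR box contains the E-box and the full HNF1 motif the short one, and a match is only a match of letters. The GENCODE vM21 counterparts of the listed transcripts were compared with the bases after the annotated start. Their first bases matched there, with some offset allowed, for Lrp2 and Amn but not for Cubn.

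Depth was estimated from the step between low FPKM values at 11900000 to 12900000 fragments per library. At that depth Lrp2 received at least 17000 fragments in every library, which gives a counting error of at most 0.776%. The other genes had at least 7900 (Dab2), 6300 (Lrpap1), 4100 (Cubn), 1600 (Amn), 780 (Clcn5) and 200 fragments (Ocrl), and the counting error of Ocrl reached 7.06%. The library of high Pi replicate 1 was the most distant from its own diet, by 0.299 on the log2 scale (root mean square over genes, from the mean of the other 3), where the remaining 7 libraries had 0.138 to 0.212. Results of the 7 genes are therefore given with and without that library.

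Megalin, cubilin and the other long transcripts were measured against a trend on transcript length that differed between libraries. Over 12291 genes with a known length, the deviation of log2(FPKM + 1) from the mean of the 8 libraries followed length with a Spearman rank correlation of 0.39 for the first high Pi library and -0.50 for the third. The coefficient was 0.34 in normal Pi replicate 2 and between -0.14 and 0.05 in the other 5 libraries (across genes, which are not independent). Among the 561 genes over 8 kb, the median deviation was 0.19 in high Pi replicate 1, 0.11 in normal Pi replicate 2 and -0.20 in high Pi replicate 3. The 2 strongest trends, of opposite sign, thus lay within the high Pi diet. Genes over 8 kb also had a lower median difference between diets (-0.07 on the log2 scale, and -0.13 without high Pi replicate 1) than genes under 1 kb (0.02 and 0.05). Lrp2 (15460 nt), Cubn (11262 nt) and Clcn5 (8390 nt, the length of its longest annotated transcript) fall in the long class. Ocrl has 5253 nt, Dab2 3793 nt, Lrpap1 2981 nt and Amn 1701 nt.

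**Figure D1:**
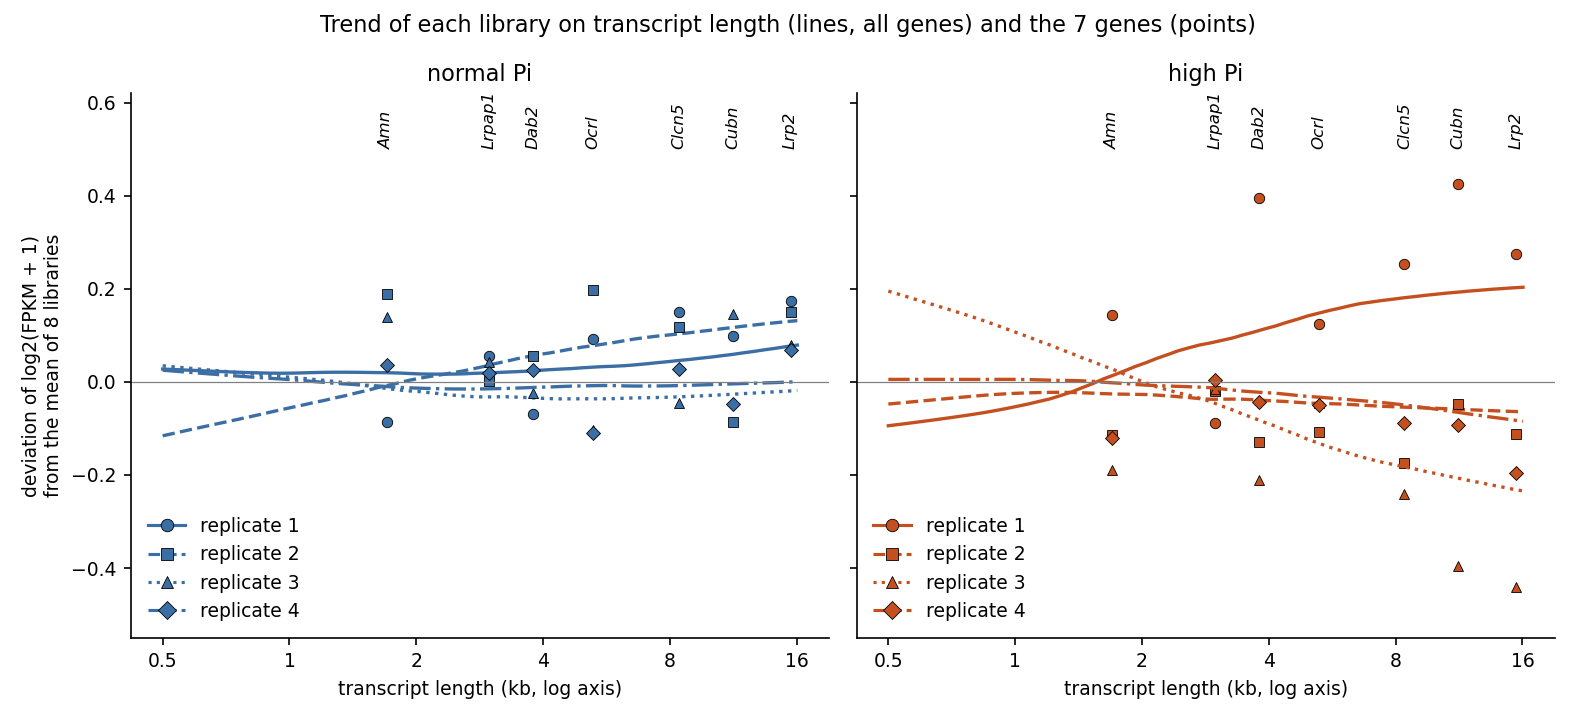
Deviation of log2(FPKM + 1) from the mean of 8 libraries (y axis) against transcript length in kb (x axis, log scale), with normal Pi on the left and high Pi on the right. Lines are the smoothed trend of each library over all genes and points are the 7 genes named at the top. In high Pi replicate 1 the line climbs to about 0.20 at the length of Lrp2, and in high Pi replicate 3 it drops to -0.23 there.

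In the cortex of mice on the normal Pi diet, Dab2 and Lrpap1 were the most abundant of the 7 mRNAs per length, at 189 ± 7.25 (SD, n = 4) and 184 ± 3.09 FPKM. Their ranges overlapped (180.33 to 196.73 for Dab2, 180.68 to 187.65 for Lrpap1), so their order is not fixed. Lrp2 followed at 125 ± 4.55, Amn at 89.9 ± 7.57 and Cubn at 39.0 ± 3.11 FPKM, with no overlap between neighbours. Clcn5 (9.27 ± 0.627) and Ocrl (3.53 ± 0.479) were the least abundant, again without overlap. Among all genes ranked by mean level over the 8 libraries, Dab2 stood at 478, Lrpap1 at 508, Lrp2 at 767, Amn at 1028, Cubn at 2017, Clcn5 at 5818 and Ocrl at 8696. On the high Pi diet the same order of means held, but Lrp2 (84.60 to 139.63) and Amn (74.77 to 94.40) overlapped there, as did Dab2 and Lrpap1.

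Between diets none of the 7 genes passed the test. In limma-trend on log2(FPKM + 1), with p-values adjusted over 12383 genes, 0 of 7 reached an adjusted p of 0.05, beside 0.299% of all genes tested. At an unadjusted p under 0.05 the count was also 0 of 7, beside 9.35% of all genes, and the exact permutation test gave unadjusted p-values from 0.0571 (Lrpap1) to 0.971 (Dab2), where 0.0286 is the smallest that 4 libraries against 4 allow. The diets overlapped in all 7 genes, whereas 5.02% of genes tested did not overlap. Of the 7 log2 fold changes, 6 were below 0, beside 54.3% of genes, with a median of -0.06 over the 7 and -0.01 over all genes. These genes were read from the same libraries and are not independent of one another.

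**Figure D2:**
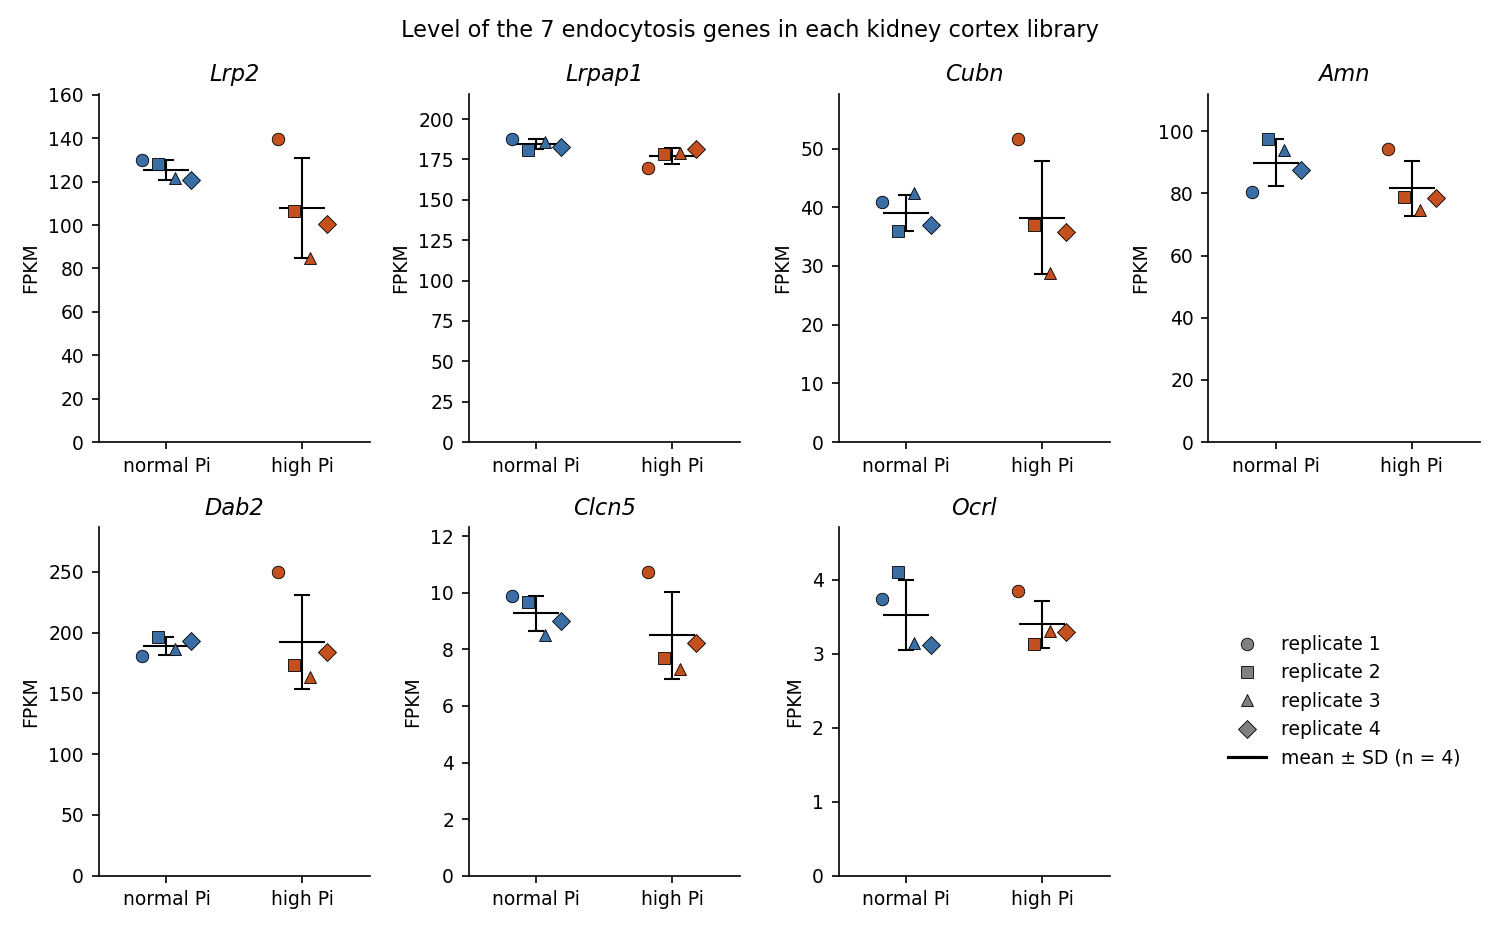
FPKM (y axis, from 0) of each gene in the 4 normal Pi (blue) and 4 high Pi (orange) libraries, with the marker shape giving the replicate and the bars the mean ± SD. High Pi replicate 1 is the highest library of its diet for every gene except Lrpap1, where it is the lowest of all 8.

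Lrp2, which encodes megalin, maps to chromosome 2 between 69424335 and 69586029 (GRCm38.p6, gene ID 14725). The FPKM of Lrp2 was 130.13, 127.96, 121.80 and 120.88 in normal Pi replicates 1 to 4 and 139.63, 106.55, 84.60 and 100.49 in high Pi replicates 1 to 4. In words, 3 of the high Pi libraries thus lay below every normal Pi library, and high Pi replicate 1 lay above them all. The means were 125 ± 4.55 and 108 ± 23.1 (SD, n = 4 each). This amounted to a log2 fold change of -0.24 (standard error [SE] 0.119, 95% interval -0.50 to 0.02, limma-trend adjusted p = 0.588), and the exact two-sided permutation test gave p = 0.171. The spread among high Pi libraries was thus larger than the difference between the means.

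Without high Pi replicate 1, Lrp2 was the only gene of the 7 to pass the test. Its high Pi mean was then 97.2 ± 11.3 (SD, n = 3), and its log2 fold change was -0.37 (SE 0.0771, 95% interval -0.54 to -0.20, limma-trend adjusted p = 0.0276). Leaving out this library also raised the share of tested genes that were called to 3.4%, and 2.14% of tested genes were called lower on high Pi. The exact permutation p was 0.0286, the smallest that 4 against 3 allow. With the length trend of each library removed, the log2 fold change was -0.15 over 8 libraries (adjusted p = 0.396), and -0.19 when high Pi replicate 1 was also left out (adjusted p = 0.0827). Removal of the length trend thus ended the call that leaving out the library had brought, and moved the value from -0.37 to -0.19. The residuals of Lrp2 from the trend were 0.10, 0.02, 0.10 and 0.07 in the normal Pi libraries. They were 0.07, -0.05, -0.21 and -0.11 in the high Pi libraries, so that the same 3 high Pi libraries stayed below all normal Pi libraries. Of the 561 genes over 8 kb, 35 (6.24%) had a log2 fold change as low as that of Lrp2 or lower, and 28 (4.99%) did so without high Pi replicate 1. Leaving out high Pi replicate 3 instead, the library with the lowest Lrp2 and the strongest length trend, gave -0.13 for Lrp2 (limma-trend adjusted p = 0.886).

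Lrpap1, the gene of the megalin chaperone RAP, lies on chromosome 5 from 35091490 to 35105699 (gene ID 16976). Its FPKM was 187.65, 180.68, 185.90 and 182.97 on normal Pi and 169.64, 178.23, 178.67 and 181.18 on high Pi. These are the tightest values of the set, with 1 high Pi library (181.18) inside the normal Pi range and 3 below it. The log2 fold change was -0.06 (SE 0.0550, 95% interval -0.18 to 0.06, adjusted p = 0.822), and -0.04 without high Pi replicate 1 (adjusted p = 0.717). The lower end of the interval over 8 libraries, -0.18, lay above the estimate for Lrp2. The interval of Lrp2 itself, -0.50 to 0.02, contained the estimate for Lrpap1.

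Cubn, which encodes cubilin, lies on chromosome 2 from 13276338 to 13491876 (gene ID 65969). Its FPKM was 40.96, 35.91, 42.35 and 36.92 on normal Pi and 51.63, 36.90, 28.77 and 35.73 on high Pi. The highest and the lowest of the 8 libraries were both on high Pi, replicates 1 and 3, which also carry the strongest length trends of opposite sign. The means were 39.0 ± 3.11 and 38.3 ± 9.61 (SD, n = 4 each), and the log2 fold change was -0.06 (SE 0.139, 95% interval -0.36 to 0.25, adjusted p = 0.953). It was -0.21 without high Pi replicate 1 (adjusted p = 0.254) and 0.02 with the length trend removed (adjusted p = 0.978), so the data give no direction for Cubn.

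Amn, the gene of amnionless, lies on chromosome 12 from 111271096 to 111276426 (gene ID 93835) and is short, with a fitted length trend between -0.03 and 0.03 in every library. Its FPKM was 80.38, 97.50, 94.10 and 87.51 on normal Pi and 94.40, 78.84, 74.77 and 78.40 on high Pi. As for Lrp2, 3 high Pi libraries lay below all normal Pi libraries and replicate 1 lay within the normal Pi range. The means were 89.9 ± 7.57 and 81.6 ± 8.72, and the log2 fold change was -0.14 (SE 0.0855, 95% interval -0.33 to 0.05, adjusted p = 0.679). Without high Pi replicate 1 it was -0.21 (95% interval -0.37 to -0.06, adjusted p = 0.140), and the same value was obtained when the length trend was removed as well (-0.21, adjusted p = 0.160). Amn did not pass in any of the 18 fits made.

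Dab2, the endocytic adaptor, lies on chromosome 15 from 6299788 to 6440715 (gene ID 13132). Its FPKM was 180.33, 196.73, 186.22 and 192.86 on normal Pi and 249.46, 173.04, 163.37 and 183.73 on high Pi. High Pi replicate 1 lay far above the other 7 libraries. For Dab2 the log2 fold change was 0.01 (SE 0.111, 95% interval -0.24 to 0.25, adjusted p = 0.996) and -0.12 without that library (adjusted p = 0.295). Dab2 is also expressed by macrophages, and the summed FPKM of 5 macrophage markers, all of them detected, was 58.6 to 72.5 on normal Pi and 69.1 to 92.9 on high Pi. It was 92.4 in high Pi replicate 1 and 92.9 in high Pi replicate 3, the libraries with the highest and the lowest Dab2, and its part in the values of Dab2 was not tested.

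Clcn5 and Ocrl, the Dent disease genes, both lie on chromosome X. Clcn5, from 7153810 to 7319358 (gene ID 12728), had an FPKM of 9.90, 9.66, 8.52 and 9.01 on normal Pi and 10.72, 7.71, 7.32 and 8.24 on high Pi. Again 3 high Pi libraries lay below the normal Pi range and replicate 1 above it. This gave a log2 fold change of -0.12 (SE 0.108, 95% interval -0.36 to 0.11, adjusted p = 0.795), -0.23 without high Pi replicate 1 (adjusted p = 0.146) and -0.11 with the length trend removed as well (adjusted p = 0.423). Ocrl, from 47912418 to 47966428 (gene ID 320634), had 3.74, 4.10, 3.14 and 3.12 FPKM on normal Pi and 3.85, 3.13, 3.31 and 3.30 on high Pi. Its diets overlapped almost fully, and the log2 fold change was -0.04 (SE 0.0986, 95% interval -0.25 to 0.18, adjusted p = 0.956) and -0.09 without high Pi replicate 1 (adjusted p = 0.670).

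Over the whole set, leaving out high Pi replicate 1 placed all 7 log2 fold changes below 0, beside 61.2% of all genes. The unadjusted p was then under 0.05 for 4 of 7 (Lrp2, Cubn, Amn and Clcn5), beside 18.8% of all genes. Every remaining high Pi library lay below every normal Pi library for Lrp2, Amn and Clcn5, beside 12.3% of all genes. With the length trend removed as well, 6 of 7 were below 0 (49.6% of all genes), 2 of 7 had an unadjusted p under 0.05 (17.4%), and 0 of 7 passed the adjusted threshold (3.26%). With all 8 libraries and the length trend removed, 0 of 7 passed, beside 0.399%. When high Pi replicate 3 was left out instead, 0 of 7 passed, beside 19 of 12383 genes. Cubn (0.07) and Dab2 (0.08) then had log2 fold changes above 0, and those of the other members stayed below 0.

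**Figure D3:**
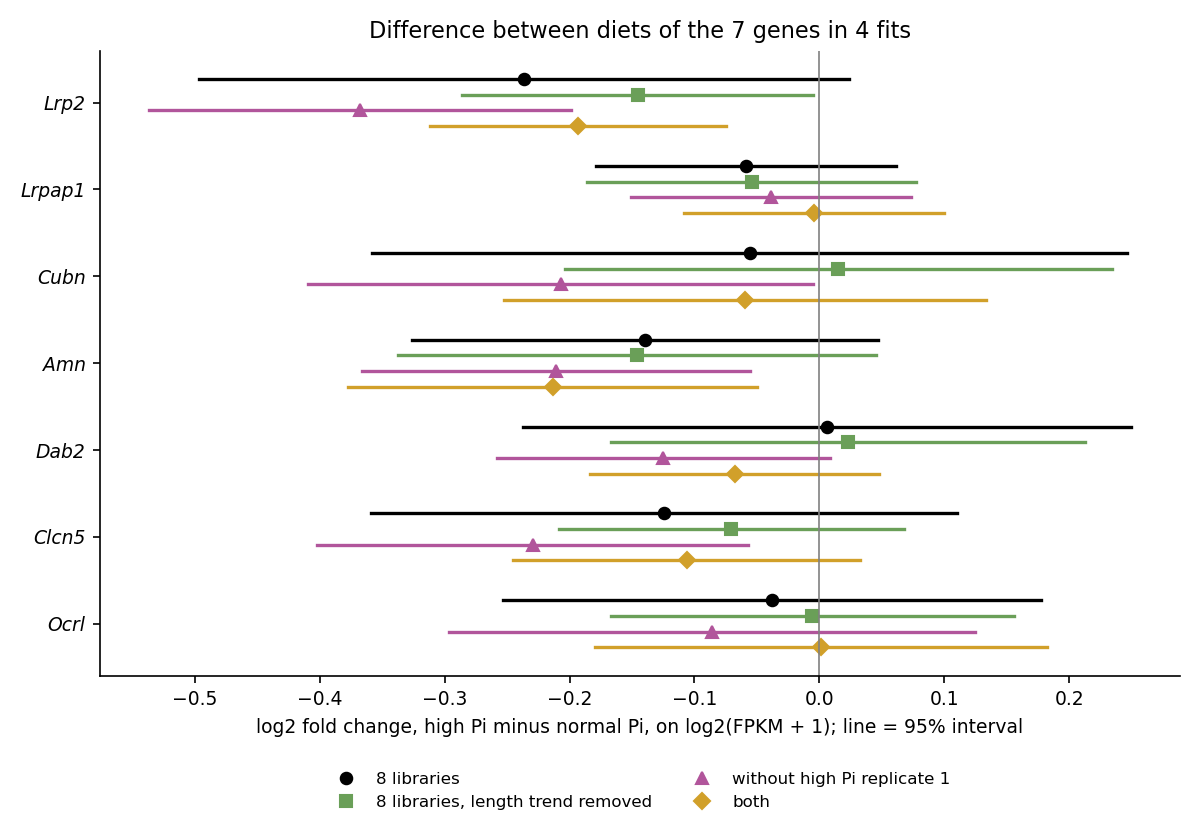
Log2 fold change of FPKM + 1 between diets (x axis, below 0 where high Pi is lower) for each of the 7 genes, with 95% intervals from limma-trend, in 4 fits told apart by colour and marker. For Lrp2 the value runs from -0.37 without high Pi replicate 1 to -0.15 with the length trend removed, and for Cubn, Dab2 and Ocrl the sign differs between fits.

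Ratios between partners within a library remove the scaling of that library, though not the length trend. Of 6 pairs compared, only Lrp2/Dab2, receptor to adaptor, did not overlap between diets. The ratio was 0.722, 0.650, 0.654 and 0.627 on normal Pi and 0.560, 0.616, 0.518 and 0.547 on high Pi. High Pi replicate 1, which stood apart for each gene alone, lay among the other high Pi libraries in this ratio. The means were 0.663 ± 0.0408 and 0.560 ± 0.0411 (SD, n = 4 each), a log2 difference of -0.24 (exact two-sided permutation p = 0.0286, the smallest possible, and 0.171 adjusted over the 6 pairs by Benjamini-Hochberg). Without high Pi replicate 1 it was -0.25 (exact p = 0.0286, adjusted 0.0857). With the length trend removed from both genes the difference was -0.17 (exact p = 0.0857, adjusted 0.257). The smallest possible p of 0.0286 becomes 0.171 over 6 pairs when only 1 pair reaches it. This ratio could therefore not pass the adjusted threshold by itself, and its failure to pass decides nothing.

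The ratio of the receptors to each other, Lrp2/Cubn, was 3.22 ± 0.283 on normal Pi and 2.84 ± 0.102 on high Pi, with overlap (exact p = 0.0857, adjusted 0.257), and the log2 difference of -0.18 was -0.16 without high Pi replicate 1 (exact p = 0.114, adjusted 0.214). Cubn/Amn, whose products form the cubam receptor, was 0.438 ± 0.0588 and 0.464 ± 0.0664 (exact p = 0.600, adjusted 0.600). Lrp2/Lrpap1 was 0.679 ± 0.0256 and 0.612 ± 0.150 (exact p = 0.371, adjusted 0.557). This last ratio was 0.823 in high Pi replicate 1 and 0.474 to 0.598 in the other high Pi libraries, and without that library the log2 difference was -0.33 (exact p = 0.0286, adjusted 0.0857). For Cubn/Dab2 and Clcn5/Ocrl the exact p was 0.543 and 0.371 (adjusted 0.600 and 0.557).

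**Figure D4:**
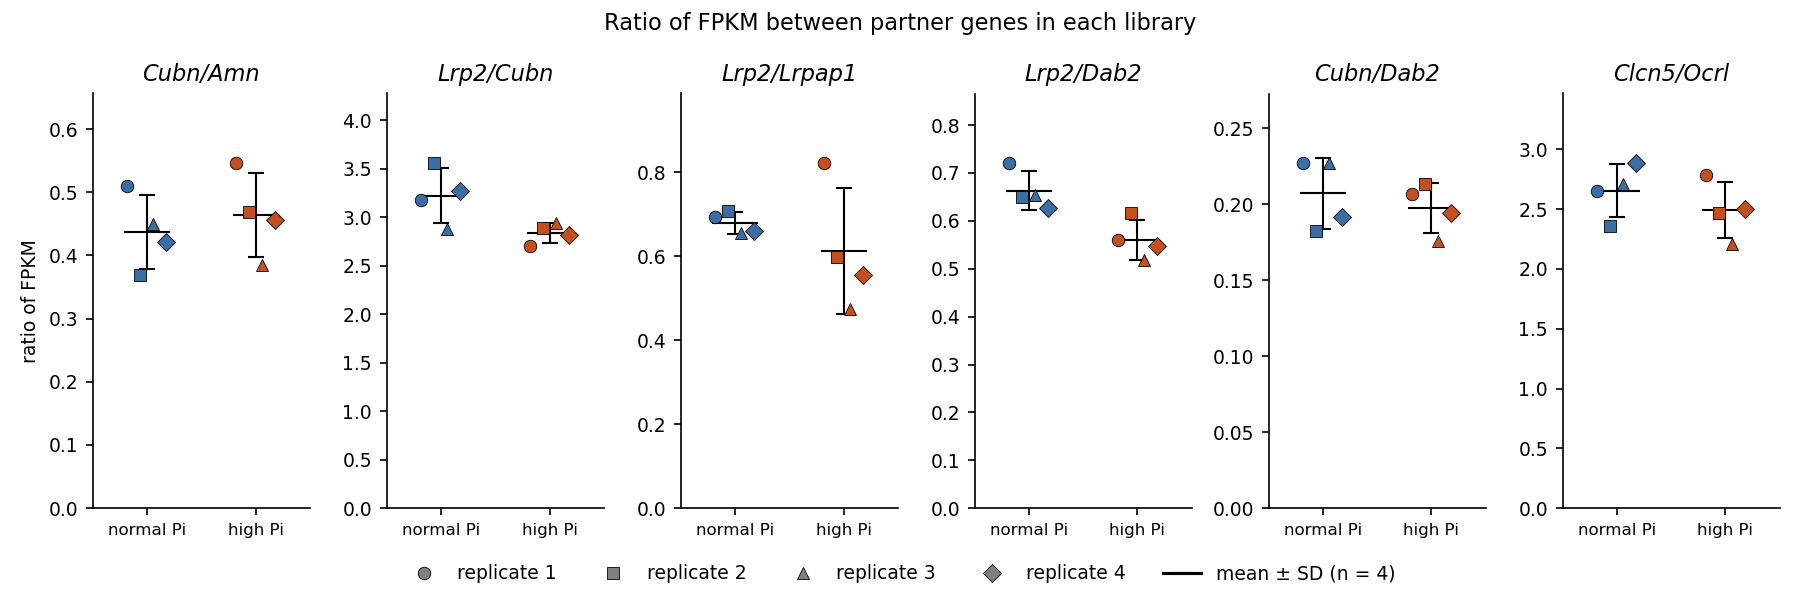
Ratio of FPKM (y axis, from 0) for 6 pairs of partner genes in each normal Pi (blue) and high Pi (orange) library, with the mean ± SD of 4 libraries. The Lrp2/Dab2 ratio is 0.627 to 0.722 on normal Pi and 0.518 to 0.616 on high Pi, and the other 5 pairs overlap.

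Lrp2, Cubn, Amn and Lrpap1 each had 1 listed transcript, so that their transcript and gene values are the same. Dab2 had 7 listed transcripts, and NM_001008702.2 carried 67.9% of its FPKM, NM_001037905.3 16.7% and NM_001102400.1 10.9%. The share of NM_001037905.3 was 18.8%, 22.4%, 18.8% and 13.4% on normal Pi and 21.1%, 18.7%, 10.8% and 7.13% on high Pi. Its lowest shares were those of high Pi replicates 3 and 4, but the diets overlapped (exact p = 0.257, 0.579 adjusted over 9 transcripts). Clcn5 was read almost wholly from XM_011247442.1 (91.1%) with NM_016691.4 at 7.65%, and Ocrl from NM_177215.3 (86.5%). Across all 22595 transcripts tested 0.0221% passed limma-trend at an adjusted p of 0.05, and none of the 13 tested transcripts of the 7 genes did, with 1 of 13 at an unadjusted p under 0.05, beside 7.1% of all transcripts tested.

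The genes that moved most like megalin between libraries were looked up among 7659 genes with a mean of at least 5 FPKM. Likeness was Pearson's r over the 8 libraries on deviations from the diet means, and it is given as a description, since all genes share the same 8 libraries and high Pi replicate 1 lies far from the rest. Sorl1, a sorting receptor of the LDL receptor family with a 10715 nt transcript, was closest to Lrp2 (r = 0.995). Its FPKM was 10.52, 10.70, 10.29 and 9.84 on normal Pi and 12.43, 9.25, 7.27 and 8.77 on high Pi. These values follow the order of Lrp2 on the high Pi diet. Without high Pi replicate 1 its r was 0.980 and it ranked 10, and with the length trend removed it was 0.977 and it ranked 5. Pum2 (an RNA-binding repressor), Vps13b (a lipid transfer protein of the Golgi), Ankhd1 and Stt3b (an oligosaccharyltransferase subunit) came next, at 0.990 to 0.991. With the length trend removed Vps13b, at 13757 nt, dropped to 0.884 and ranked 107.

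Cubn was followed most closely by Cyp2d22 (a cytochrome P450, r = 0.987), Cnn3 (calponin 3, 0.987), Nox4 (the NADPH oxidase of tubule cells, 0.983), P4ha1 (a collagen prolyl hydroxylase subunit, 0.973) and Eef1a1 (a translation elongation factor, 0.973). Lrp2 and Cubn were correlated at 0.932, at 0.889 with the length trend removed and at 0.747 without high Pi replicate 1. Between Lrp2 and Dab2 r was 0.895, and 0.454 without that library. Between Lrp2 and Clcn5 it was 0.913 and 0.617, and between Lrp2 and Amn 0.697 and 0.145. Lrpap1 went the other way from Lrp2, at -0.70, and without high Pi replicate 1 its r was 0.0995. The r with Lrp2 was thus closer to 0 without that library for all 5 genes, least so for Cubn, and Ocrl, under 5 FPKM, was not included.

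Around the receptors, 5 lists of the same pathway were counted in the fit over all genes. In that fit 0.299% of all genes tested passed, and 9.35% had an unadjusted p under 0.05. The share that passed was 3.4% without high Pi replicate 1. None of 25 tested genes of the clathrin coat and its adaptors passed in either direction (median log2 fold change -0.02), and 1 had an unadjusted p under 0.05. That gene was Picalm, a clathrin assembly protein, at 74.7 ± 2.32 FPKM on normal Pi and 63.6 ± 8.56 on high Pi (log2 fold change -0.24, adjusted p = 0.365). Without high Pi replicate 1 its log2 fold change was -0.32 (adjusted p = 0.0260). None of 29 genes of endosome motors, Rab proteins and phosphoinositide enzymes passed (median -0.01), with or without high Pi replicate 1. The only unadjusted p under 0.05 there was that of Appl2, a signalling adaptor of early endosomes, at 11.3 ± 0.848 and 9.59 ± 0.898 FPKM (log2 fold change -0.21, adjusted p = 0.429, and -0.26, adjusted p = 0.102, without that library). None of 17 tested genes on the list of other LDL receptor family and sorting receptors passed either (median -0.01). Of these, 1 had an unadjusted p under 0.05, Ldlrad4 (7.22 ± 0.70 and 6.03 ± 0.232 FPKM, log2 fold change -0.22, adjusted p = 0.390, and -0.21, adjusted p = 0.216, without high Pi replicate 1). Its place on the list does not make Ldlrad4 an endocytic receptor.

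None of 25 genes of endosomal acidification passed (median -0.04), and 2 had an unadjusted p under 0.05, beside 9.35% of all genes. Clcn6, a chloride/proton exchanger of late endosomes related to Clcn5, had 5.19, 6.43, 5.94 and 5.70 FPKM on normal Pi and 6.88, 3.71, 3.47 and 3.68 on high Pi. High Pi replicate 1 was the highest of the 8 libraries, and the other 3 were the lowest. The log2 fold change of Clcn6 was -0.37 (SE 0.160, adjusted p = 0.492), -0.56 without high Pi replicate 1 (adjusted p = 0.00746) and -0.47 with the length trend removed as well (adjusted p = 0.0109). Atp6v1b1, the proton pump subunit of intercalated cells, was the other gene of the list called without that library, at 73.3 ± 2.34 and 64.8 ± 10.1 FPKM over all libraries. Its log2 fold change was -0.19 (adjusted p = 0.577), and -0.29 without that library (adjusted p = 0.0188). The summed FPKM of 4 intercalated cell markers, none at 0, was 74.5 to 82.6 on normal Pi, 110.9 in high Pi replicate 1 and 60.04 to 63.75 in the other high Pi libraries. High Pi replicate 1 also had the highest sum of all libraries for podocyte (141.5), distal convoluted tubule (361.5) and endothelial markers (130.1). The remaining libraries had 103.1 to 116.9, 266.8 to 335.9 and 90.93 to 116.4. For principal cell (300.3) and macrophage markers (92.37) high Pi replicate 1 lay just below the highest library, high Pi replicate 3 (301.1 and 92.92). It was also not the highest for proximal tubule, thick ascending limb, adipocyte or red cell markers. The part of these cell types in the values of Clcn6 and Atp6v1b1 was not tested.

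Among the proteins that megalin and cubilin take up, 24 of 26 listed genes were measured and 19 tested, and 1 rose. Mt2, the zinc- and cadmium-binding metallothionein 2, had 97.93, 107.13, 97.30 and 121.37 FPKM on normal Pi and 157.78, 157.37, 212.78 and 149.99 on high Pi, without overlap. Its mean was 106 ± 11.2 on normal Pi and 170 ± 29.1 on high Pi (log2 fold change 0.66, SE 0.110, limma-trend adjusted p = 0.0359). The call of Mt2 depended on the setting, and it was lost in 6 of the 8 fits that left out 1 library (adjusted p up to 0.139). It held with a pseudocount of 0.1 (adjusted p = 0.0382), quantile normalization (0.0437), the length trend removed (0.0266) and library weights (0.0111). Without the filter (adjusted p = 0.113), with median-of-ratios scaling (0.0685) and with the replicate block (0.173) it was lost. The list had a median log2 fold change of 0.01. Of its 19 genes 1 passed, beside 0.299% of all genes, and 5 had an unadjusted p under 0.05, beside 9.35%. Lcn2 (lipocalin 2), Trf (transferrin), Mt1 (metallothionein 1) and B2m (beta-2-microglobulin) were the other 4, with log2 fold changes of 0.82, 0.49, 0.47 and 0.24 (adjusted p = 0.156, 0.479, 0.118 and 0.327), named after their values were seen. These were, without high Pi replicate 1, 0.71, 0.44, 0.43 and 0.24 (adjusted p = 0.0924, 0.328, 0.0561 and 0.170), and none passed. Without high Pi replicate 1, Ttr, the thyroxine carrier transthyretin, also passed. It had 62.77 FPKM in that library, 164.35 to 233.32 in the other high Pi libraries and 107.67 to 121.33 on normal Pi. Its log2 fold change was 0.79 without that library (adjusted p = 0.00316) and 0.37 with it (adjusted p = 0.790). These are mRNA levels of the cortex, whereas the filtered ligands are made mostly in other organs.

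**Figure D5:**
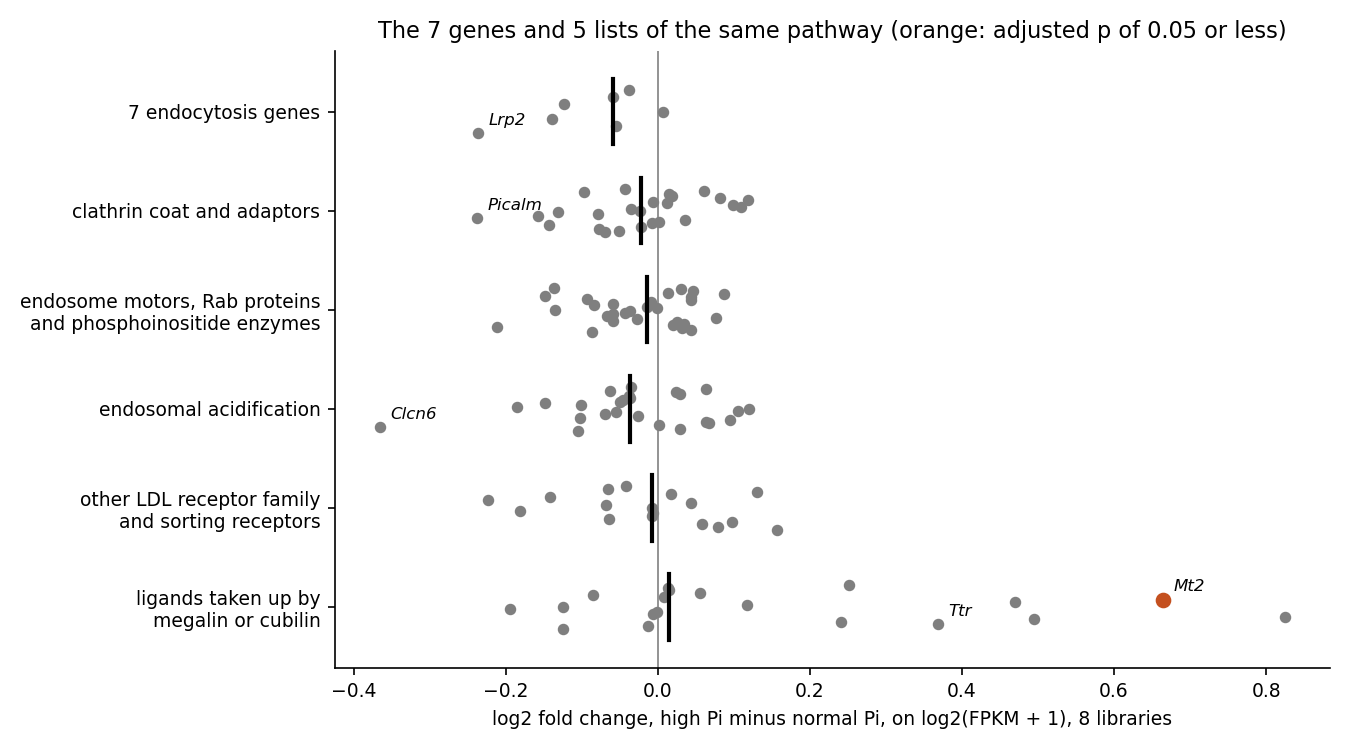
Log2 fold change of FPKM + 1 between diets over 8 libraries (x axis, below 0 where high Pi is lower) for the 7 genes and the 5 pathway lists (rows). Each point is a gene, the vertical bar is the median of the row, and orange marks an adjusted p of 0.05 or less, which Mt2 alone reached.

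The cortex was checked for proximal tubule by 16 markers, all of which were detected in every library, and their summed FPKM was 14170 to 15310 on normal Pi and 12530 to 14180 on high Pi. Only 7 of the 16 had a log2 fold change below 0, with a median of 0.03. None passed the adjusted threshold, and 7 had an unadjusted p under 0.05 in limma-trend, beside 9.35% of all genes. In the fit without high Pi replicate 1, 6 were called lower and 1 higher, beside 3.4% of all genes called in either direction. There 10 of the 16 had an unadjusted p under 0.05, beside 18.8% of all genes. Without Slc34a1 the sum of the other 15 was 10643 to 11275 on normal Pi and 9769 to 11163 on high Pi, so that these ranges overlapped. High Pi replicate 1, at 13320 for all 16, lay inside the range of its diet, and its Lrp2 was the highest of all libraries. Slc34a1, which encodes Npt2a, was 3909 ± 268 FPKM on normal Pi and 2958 ± 170 on high Pi, with no overlap (log2 fold change -0.40, SE 0.0865, adjusted p = 0.102). The call of Slc34a1 depended on the setting, since it passed without high Pi replicate 1 (-0.43, adjusted p = 0.0157), with the length trend removed (-0.38, adjusted p = 0.0449) and with library weights (-0.42, adjusted p = 0.00585). With quantile normalization the value was -0.11 (adjusted p = 0.642). It was 3163 FPKM in high Pi replicate 1 and 2764 to 3013 in the other high Pi libraries. Slc34a1 thus separated that library from the normal Pi libraries, and Lrp2 did not. Umod, a marker of the thick ascending limb, was 797 ± 40.0 and 952 ± 148 FPKM (log2 fold change 0.24, adjusted p = 0.456, and 0.27, adjusted p = 0.190, without high Pi replicate 1). The part of tissue composition in the values of the 7 genes was not tested.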

How the data were processed

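Kidney cortex mRNA of 8 mice was sequenced on the BGI DNBSEQ platform, with 1 library per mouse, and samples were grouped by the diet in their labels. The FPKM per gene and per transcript were deposited by the authors with 2 decimals, after alignment with HISAT and Bowtie2 to GRCm38.p6 (submitters' processing notes, versions not given in the sources used here). The counting step, gene models and strandedness were likewise not given in the sources used here. FPKM hold no counts, so a test on log2(FPKM + 1) replaced a count test, and depth was estimated. Between 76.2% and 84.1% of the low values used lay within 0.2 fragments of a whole number, so these depths are rough. The estimated counts bear on counting error only.

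The 12383 genes that reached 0.5 FPKM in 4 or more libraries were tested with limma-trend (limma 3.58.1, R 4.3.3). Differences are high Pi minus normal Pi, p-values were adjusted over all these genes by Benjamini-Hochberg, and the threshold was 0.05. Exact two-sided permutation tests used all 70 assignments of 8 libraries. P-values measure the spread between these libraries only. The length of a gene is that of its most abundant transcript, or of its longest annotated one in GENCODE vM21. The length trend is a lowess curve (span 0.3) of each library. Opposite-strand exons annotated within Cubn (2.46% of its exon bases) and Dab2 (2.87%) could share reads. Symbols appeared as dates for 23 genes, and the gene IDs gave the symbols back.

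The 7 genes, the lists and the tests were chosen with earlier results of these data known. Named are the 7 genes, per list the genes past the threshold (up to 4) or else the one with the smallest p, the 5 genes most like Lrp2 and Cubn, and Slc34a1 and Umod. Atp6v1b1, Ttr, Lcn2, Trf, Mt1 and B2m were named after their values were seen. Alternatives were no filter, a pseudocount of 0.1, quantile normalization, median-of-ratios scaling, library weights, removal of the length trend, a block on the replicate number, and each library left out in turn. The combination of length trend removal with leaving out high Pi replicate 1 was chosen after seeing the data. Python 3.11.15, numpy 2.4.6, pandas 2.3.3 and matplotlib 3.10.9 were also used.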

Additional observations from a re-analysis of the deposited data

Results flagged for a closer look

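Dixon's test was run on 44 groups of 4 libraries, and 1 group held a library far from the others, where chance would give about 1 in 20 groups. XM_011247442.1, the main transcript of Clcn5, had 9.76 FPKM in high Pi replicate 1 and 6.93 to 7.35 in the other 3 high Pi libraries, a gap of 0.852 of the range of the group.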

How the results depend on the processing

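The replicate numbers did not pair the libraries (same-number correlations of -0.21, -0.01, 0.06 and -0.12). With the replicate block, alone or with the length trend removed, 0 of the 7 genes passed, and Lrp2 had an adjusted p of 0.536 and 0.498. For the block alone, 0 of their transcripts passed. The 6 ratios could not pass with the block, since a sign-flip test on 4 replicate pairs gives no p below 0.125, the value of Lrp2/Dab2. The block lowered the count of called genes from 37 to 11. The number of the 7 genes called was 0 in all settings except that it ran from 0 to 1 when 1 library was left out. For the clathrin list the count went from 0 to 1 with library weights and with the length trend removed and without high Pi replicate 1, and ran from 0 to 1 when 1 library was left out. For the acidification list it went from 0 to 2 in the same settings and ran from 0 to 2. For the ligand list, 1 in the main test, it was 0 with no filter, with median-of-ratios scaling and with the replicate block with or without length correction, 3 with library weights, 2 with the length trend removed and without high Pi replicate 1, and 0 to 2 when 1 library was left out. The log2 fold change of Cubn, -0.06, was 0.0152 with the length trend removed, with or without the replicate block, and ran from -0.21 to 0.067 when 1 library was left out. That of Dab2, 0.01, was -0.000797 with quantile normalization, -0.0746 with library weights, -0.068 with the length trend removed and without high Pi replicate 1, and -0.12 to 0.078 when 1 library was left out. That of Ocrl, -0.04, was 0.0013 with the length trend removed and without high Pi replicate 1, and -0.086 to 0.022 when 1 library was left out. Among transcripts, the same range was -0.21 to 0.067 for NM_001081084.2 (Cubn), -0.17 to 0.13 for NM_001102400.1, -0.22 to 0.054 for NM_023118.5 and -0.61 to 0.11 for NM_001310446.1 (Dab2). For NM_177215.3 (Ocrl), at 0.00 in the main test, it was -0.069 to 0.084, with 0.0047 for a pseudocount of 0.1, 0.019 with quantile normalization, 0.0145 with median-of-ratios scaling and 0.038 with library weights. The log2 fold change of Lrp2 was below 0 in all 18 fits (-0.37 to -0.13), and those of Amn, Clcn5 and Lrpap1 were too. The cause of these changes was not tested. Clcn5 and Ocrl have the fewest fragments, but their SE in the main test (0.108 and 0.0986) was below that of Cubn (0.139) and Lrp2 (0.119). For each of the 7 genes, a difference smaller than its interval was not detectable with 4 libraries per diet.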
